A study of Mus musculus with 2 samples.

Results

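The isthmic organizer genes Fgf8, Fgf17, En1, En2, Gbx2, Otx2 and Wnt1 are 7 of the 21692 protein-coding genes whose chromatin accessibility was measured in the embryonic mouse hindbrain. They were chosen by name for their known role at the border of midbrain and hindbrain. The tissue was hindbrain of healthy mouse embryos of strain B6NCrl at embryonic day 11.5, with male and female embryos pooled. There was 1 group with 2 biological replicates, each a DNase-seq library with separate peak and hotspot lists. DNase-seq cuts nuclear DNA with the enzyme DNase I, and stretches that are cut often are open to regulatory proteins. The replicates have separate biosample entries but 1 donor entry, and nothing says that they came from separate litters. The labels do not say where the dissection cut was made relative to the midbrain. With 1 group of 2 libraries there is no test across samples, so every comparison sets the 7 genes beside all protein-coding genes, replicate by replicate. The libraries are bulk samples, so fewer cells with a site open and less opening per cell cannot be told apart.

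The isthmus is the constriction between midbrain and hindbrain, and cells there send signals that pattern both sides. The border forms where the homeodomain factor Otx2, made in forebrain and midbrain, meets the homeodomain factor Gbx2, made in the anterior hindbrain. Fgf8 and Fgf17 are the secreted fibroblast growth factors of the organizer, Wnt1 is a secreted ligand made on its midbrain side, and the homeodomain repressors En1 and En2 are made across both sides.

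A peak is a window of 150 bp with a height set by the authors, a number without a stated scaling. Peaks of either library that overlapped were joined into a site, and a site was called shared when it held a peak of both. A site within 1 kb of an annotated start was assigned to that promoter, and a site 1 to 100 kb from the nearest protein-coding start was called distal and assigned to that gene. Replicate 1 held 150176 analysed peaks with a median height of 36, and replicate 2 held 194873 with a median of 50. Replicate 2 was also the library with wide hotspots, which are the broader enriched stretches called by the authors. It held 5547 hotspots over 2 kb, against 922 in replicate 1. The 7 genes held 338 of the 231068 sites. Of these 338 sites, 169 had a replicate 1 peak and 288 had a replicate 2 peak. Among hindbrain marker genes 5 of 9 had a shared promoter site, and among forebrain marker genes 5 of 6 did. The first count lies below and the second above the share of all protein-coding genes, 66.0%, and both lists are short. Hoxa3, a hindbrain patterning gene, had no promoter peak in either library at the 1 start of it that was used. Hoxa2, Hoxb1 and Hoxb2 had a promoter peak in replicate 2 only. Egr2, which marks segments of the hindbrain, had a shared promoter site. A shared promoter site was found at 1 of 4 endothelial, 1 of 4 erythroid and 4 of 4 mesenchymal marker genes.

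By the GENCODE M21 annotation of build mm10, Fgf8 lies on the minus strand at chr19:45736798-45742915 with 5 starts, and Fgf17 on the minus strand at chr14:70636203-70642268 with 2 starts. Wnt1 lies on the plus strand at chr15:98789857-98793837. The engrailed genes lie on plus strands, En1 at chr1:120602418-120607992 and En2 at chr5:28165694-28172166. The border determinants lie on minus strands, Gbx2 at chr1:89927956-89931179 and Otx2 at chr14:48657677-48673819.

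For each gene the promoter site that ranked highest over both libraries (at Fgf8 and Fgf17, in replicate 2) is printed here. The highest promoter heights of Fgf8 in replicate 1 and of Otx2 in replicate 2 come from other sites. Each printed site is given 5′ to 3′ on the strand of its gene, on build mm10 (GRCm38.p6, RefSeq sequence), in lower case. Capitals mark matches to 10 short motifs described with the sequence results, and annotated untranslated bases were left off the Otx2 site.
Fgf8 promoter site, chr19:45742336-45742485, minus strand: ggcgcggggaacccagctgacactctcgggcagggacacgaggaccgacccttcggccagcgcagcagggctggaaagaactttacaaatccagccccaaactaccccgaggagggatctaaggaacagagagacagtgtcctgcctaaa
Fgf17 promoter site, chr14:70642276-70642425, minus strand: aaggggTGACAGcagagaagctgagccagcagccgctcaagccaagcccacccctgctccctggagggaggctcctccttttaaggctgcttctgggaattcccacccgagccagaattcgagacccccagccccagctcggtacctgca
Wnt1 promoter site, chr15:98789596-98789765, plus strand: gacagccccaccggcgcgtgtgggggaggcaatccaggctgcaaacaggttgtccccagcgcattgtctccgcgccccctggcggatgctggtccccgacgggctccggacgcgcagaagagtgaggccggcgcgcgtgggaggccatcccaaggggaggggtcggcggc
En1 promoter site, chr1:120602196-120602345, plus strand: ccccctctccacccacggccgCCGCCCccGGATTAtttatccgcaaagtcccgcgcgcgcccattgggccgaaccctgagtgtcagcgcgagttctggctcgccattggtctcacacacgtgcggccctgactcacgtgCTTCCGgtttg
En2 promoter site, chr5:28165496-28165665, plus strand: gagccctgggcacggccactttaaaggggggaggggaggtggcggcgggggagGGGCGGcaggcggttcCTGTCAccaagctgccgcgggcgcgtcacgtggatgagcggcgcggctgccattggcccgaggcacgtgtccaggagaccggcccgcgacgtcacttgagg
Gbx2 promoter site, chr1:89931196-89931345, minus strand: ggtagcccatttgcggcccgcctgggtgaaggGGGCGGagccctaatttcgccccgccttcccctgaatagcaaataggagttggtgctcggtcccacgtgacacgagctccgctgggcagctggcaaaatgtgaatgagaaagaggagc
Otx2 promoter site, chr14:48667516-48667625, minus strand: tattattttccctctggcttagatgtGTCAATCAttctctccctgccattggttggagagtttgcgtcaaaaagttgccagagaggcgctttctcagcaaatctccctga

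For the 4 genes with the most shared distal sites, the shared distal site with the highest mean rank over both libraries is printed the same way. The Wnt1 site was added after its values were seen, since it was the highest distal site of all 7 genes.
Otx2 distal site, chr14:48709876-48710065, minus strand: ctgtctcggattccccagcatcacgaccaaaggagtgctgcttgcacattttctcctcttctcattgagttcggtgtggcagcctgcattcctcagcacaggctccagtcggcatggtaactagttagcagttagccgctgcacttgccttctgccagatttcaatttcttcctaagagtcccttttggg
En2 distal site, chr5:28123176-28123325, plus strand: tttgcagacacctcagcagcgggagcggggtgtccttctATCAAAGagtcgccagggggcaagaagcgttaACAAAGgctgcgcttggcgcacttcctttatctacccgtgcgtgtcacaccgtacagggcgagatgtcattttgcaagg
Gbx2 distal site, chr1:89943336-89943485, minus strand: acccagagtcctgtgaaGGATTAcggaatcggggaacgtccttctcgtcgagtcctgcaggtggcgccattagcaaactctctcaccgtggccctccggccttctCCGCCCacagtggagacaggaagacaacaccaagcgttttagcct
En1 distal site, chr1:120594676-120594865, plus strand: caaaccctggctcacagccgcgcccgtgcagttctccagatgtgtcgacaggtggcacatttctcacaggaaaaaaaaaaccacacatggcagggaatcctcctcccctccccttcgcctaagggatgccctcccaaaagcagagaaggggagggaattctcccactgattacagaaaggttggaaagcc
Wnt1 distal site, chr15:98798116-98798285, plus strand: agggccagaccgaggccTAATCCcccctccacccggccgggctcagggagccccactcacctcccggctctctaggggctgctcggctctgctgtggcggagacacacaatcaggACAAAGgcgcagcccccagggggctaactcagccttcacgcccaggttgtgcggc

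A shared promoter site was found at 5 of the 7 genes, against 66.0% of all protein-coding genes. The 5 were the transcription factor genes En1, En2, Gbx2 and Otx2 and the ligand gene Wnt1, and the exceptions were the fibroblast growth factor genes Fgf8 and Fgf17. A promoter peak was called at 6 of the 7 genes in replicate 1, against 67.2% of all genes. In replicate 2 it was called at 7 of 7, against 69.6% of all genes. The 5 of 7 is near the share of all genes, and the 6 of 7 and 7 of 7 lie above theirs. With 7 genes, each gene weighs heavily in such a share. When peaks in hotspots over 2 kb were left out, a setting added with the values known, 1 of the 7 had a shared promoter site, against 47.2% of all genes. The starts of 6 of the 7 lie in such hotspots of replicate 2.

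Fgf8 had a highest promoter height of 42 in replicate 1 and 88 in replicate 2. The peaks behind these values lie at different places. The replicate 1 peak was centred at -12 bp from the nearest annotated start, where minus is upstream. The 4 replicate 2 peaks had heights of 82 at -695 bp, 85 at 74 bp, 88 at 274 bp and 75 at 734 bp. No replicate 1 peak overlapped any of them, so Fgf8 was accessible at its promoter in both libraries without a shared site. Fgf17 had no promoter peak in replicate 1 and 3 low ones in replicate 2, the highest at 55. Of all genes with a promoter peak in replicate 2, 5.56% had a lower highest peak than Fgf17 and 14.4% a lower one than Fgf8.

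Wnt1 had a promoter height of 72 in replicate 1 and 103 in replicate 2. It stood above Fgf8 and Fgf17 and below the 4 transcription factor genes in both libraries. En1 reached 98 in replicate 1 and 113 in replicate 2. En2, the later expressed of the engrailed pair, reached 110 and 121. Gbx2, the hindbrain side determinant, reached 100 and 128, and Otx2, the forebrain and midbrain side determinant, reached 101 and 107, at different sites. The transcription factor genes thus spanned 98 to 110 in replicate 1 and 107 to 128 in replicate 2, and their order differed between the libraries. En2 was highest of the 4 in replicate 1 and Gbx2 in replicate 2, while Otx2 was second in replicate 1 and last in replicate 2. All genes with a promoter peak had a median highest height of 100 in replicate 1 (quartiles 73 to 114) and 126 in replicate 2 (quartiles 106 to 134). Ranked within its library, Gbx2 stood above 49.0% of such genes in replicate 1 and 53.2% in replicate 2, close to the middle both times. Otx2 stood above 50.8% and 25.4%, and En2 above 66.7% and 40.1%. Wnt1 stood above 23.8% and 22.5%. In replicate 2 no other gene of the 7 stood as high among open genes as Gbx2.

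**Figure D1:**
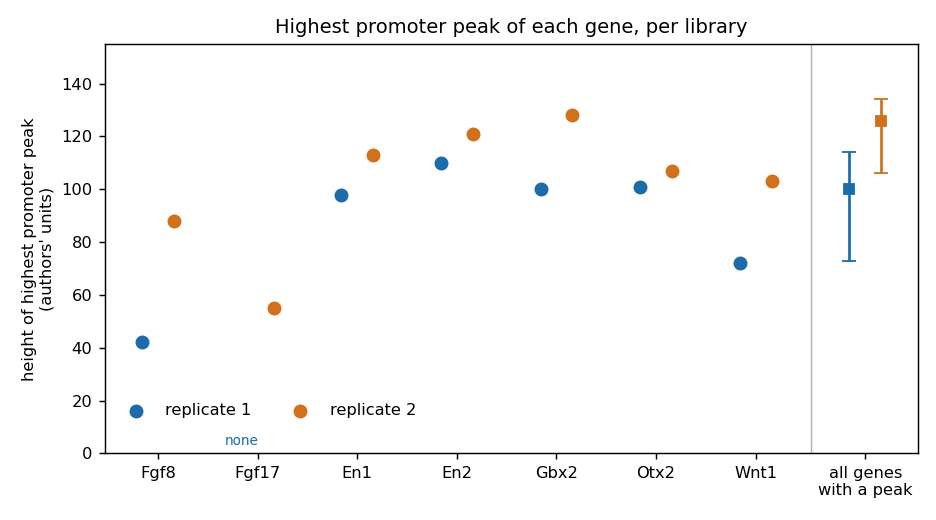
Height of the highest promoter peak (authors' units) of each isthmic organizer gene in replicate 1 (blue) and replicate 2 (orange), with squares and bars for the median and quartiles of all genes with a promoter peak. En1, En2, Gbx2 and Otx2 lie between 98 and 128, Fgf8 and Fgf17 lie lowest in both libraries, and Fgf17 has no replicate 1 peak.

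Otx2 differed from the rest in how much of its promoter region was covered. It has 5 annotated starts, and 17 promoter sites with a replicate 1 peak, 13 with a replicate 2 peak and 11 shared. Its starts are spread from position 48662872 to 48673819, so its promoter windows cover more sequence than those of a gene with 1 start. The counts were not scaled to that length. Gbx2, with 1 start, had 5 sites in replicate 1, 4 in replicate 2 and 4 shared. En2, also with 1 start, had 5, 3 and 3. En1 had 2 shared sites and Wnt1 had 1.

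Hotspots at the starts showed a wide difference between the libraries. A start lay in a replicate 2 hotspot over 2 kb for 6 of the 7 genes, against 21.2% of all genes. In replicate 1 this held for 0 of 7, against 3.93% of all genes. Of the 32 organizer network genes described below, 26 had a start in such a hotspot in replicate 2 and 8 in replicate 1. So did, in replicate 2, all mesenchymal marker genes, all hindbrain ones but Hoxa3 and all forebrain ones but Hesx1. Of the endothelial and erythroid marker genes only Kdr did. At En1 the hotspot over the start was 463 bp wide in replicate 1 and 4431 bp in replicate 2, where a second hotspot of 7469 bp lay next to it on the upstream side. At Gbx2 the widths were 439 bp and 6709 bp, and at En2 they were 1663 bp and 2593 bp. Each of these carried 100, the value the authors gave to the strongest hotspots in place of a −log10 false discovery rate. The Fgf8 start was different, since its replicate 1 hotspot of 128 bp had a −log10 false discovery rate of 1.72 and its replicate 2 hotspot of 2235 bp had the top value. The Wnt1 start lay in no replicate 1 hotspot, with hotspots of 257 bp and 230 bp on either side, and in a replicate 2 hotspot of 5292 bp. Fgf17 was the exception in replicate 2, where a hotspot of 594 bp at a −log10 of 3.22 held both of its starts.

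Distal sites were numerous at the 4 transcription factor genes. The 7 genes held 98 shared distal sites in all, and every gene had at least 1, which held for 64.1% of all genes. At least 10 shared distal sites were found at 4 of the 7 genes, against 5.14% of all genes. The median over all genes was 1 shared distal site (quartiles 0 to 3). Otx2 had 31 shared distal sites, and 99.9% of genes had fewer. En2 had 24, Gbx2 had 20 and En1 had 12. The secreted factors had fewer, with 5 at Fgf8, 4 at Wnt1 and 2 at Fgf17. Fewer sites than at En1 were found at 96.8% of genes, fewer than at Fgf8 at 81.6%, fewer than at Wnt1 at 75.7% and fewer than at Fgf17 at 54.6%. The sum of 98 became 41 without peaks in hotspots over 2 kb and 38 when noncoding genes could also be the nearest gene. Under these settings the 31 of Otx2 became 8 and 1.

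A count per gene depends on how far away the next gene is, so the sites were also counted per length of the stretch closer to the gene than to any other within 100 kb. These stretches measured 203 kb at Otx2, 147 kb at En1, 140 kb at Gbx2 and 67.3 kb at En2. They measured 42.5 kb at Fgf8, 12.9 kb at Wnt1 and 6.51 kb at Fgf17. On this scale En2 had 35.6 shared distal sites per 100 kb, Wnt1 31.0 and Fgf17 30.7, followed by Otx2 with 15.3, Gbx2 with 14.3, Fgf8 with 11.8 and En1 with 8.18. The median over all genes was 2.44 per 100 kb (quartiles 0 to 5.96). The order thus changed, with the compact Wnt1 and Fgf17 loci next to En2, but Fgf17 rests on 2 sites and Wnt1 on 4.

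The libraries differed most at Fgf8, En1 and Wnt1. Fgf8 had 5 distal sites with a replicate 1 peak and 24 with a replicate 2 peak. En1 had 12 and 58, and Wnt1 had 4 and 17. Every replicate 1 distal site of these 3 genes was also a replicate 2 site, so the replicate 2 set contained the whole replicate 1 set and added 19 sites at Fgf8, 46 at En1 and 13 at Wnt1. The ratio of replicate 2 to replicate 1 sites was 4.80 at Fgf8, 4.83 at En1 and 4.25 at Wnt1. Over the 7359 genes with at least 4 replicate 1 distal sites the median ratio was 1.25 (quartiles 1 to 1.6), and 99.5%, 99.6% and 99.3% of them had a lower ratio than Fgf8, En1 and Wnt1, in that order.

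Otx2 and En2 did not share this difference. Otx2 had 49 distal sites with a replicate 1 peak and 54 with a replicate 2 peak, a ratio of 1.10. En2 had 35 and 42, a ratio of 1.20, and both ratios lay below the median of all genes. Each also had sites of replicate 1 alone, 18 at Otx2 and 11 at En2. Gbx2 lay between, with 30 and 59 sites, a ratio of 1.97 and 10 sites of replicate 1 alone. Fgf17 had its 2 distal sites in both libraries. Summed over the 7 genes, 137 distal sites had a replicate 1 peak and 256 a replicate 2 peak, a ratio of 1.87, against 1.38 over all distal sites. The ratio was higher for the hindbrain marker genes, at 2.11, and the forebrain marker genes, at 2.49. It was lower for the mesenchymal (1.49), endothelial (1.375) and erythroid (1.25) marker genes.

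**Figure D2:**
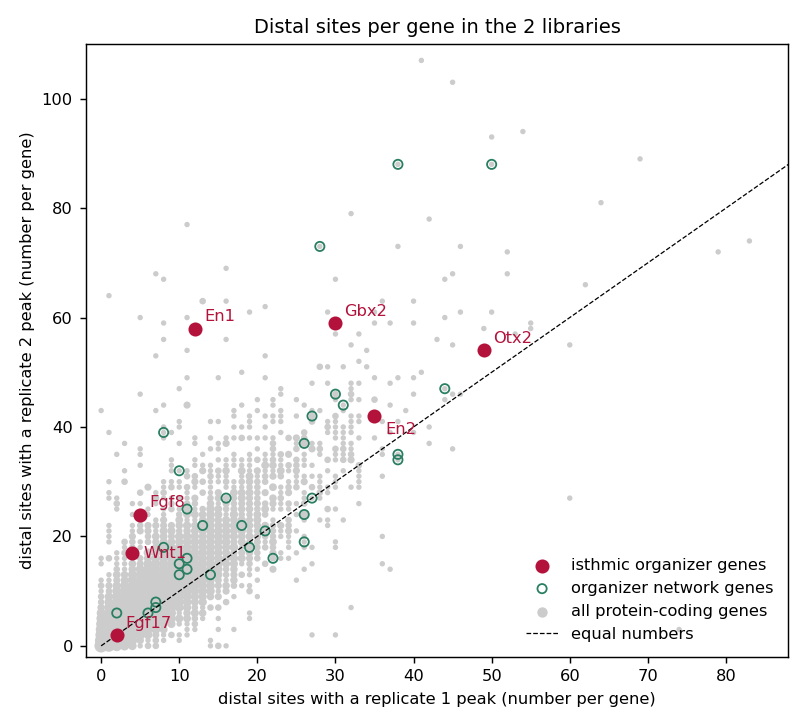
Number of distal sites per gene with a replicate 1 peak (horizontal axis) and with a replicate 2 peak (vertical axis), for the isthmic organizer genes (red, labelled), the organizer network genes (open circles) and all protein-coding genes (grey), with a dashed line of equal numbers. Fgf8, En1 and Wnt1 lie far above the line, and Otx2 and En2 lie near it.

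A smaller share of the distal sites was shared than over the genome. Of the 295 distal sites of the 7 genes, 98 or 33.2% were shared (95% exact Clopper-Pearson interval 27.9 to 38.9%), against 40.5% (40.3 to 40.8%) of all 135941 distal sites. These intervals cover counting error alone, and neighbouring sites of a gene are not independent. Of the rest, 158 sites had a replicate 2 peak alone and 39 had a replicate 1 peak alone. The sites of replicate 2 alone had a median height of 49 and those of replicate 1 alone a median of 30, each below the median of its library.

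Many of the sites of replicate 2 alone lay in its wide hotspots. Over the 7 genes 66 of these 158 sites, or 41.8%, lay in a replicate 2 hotspot over 2 kb, against 9.02% of all 55788 distal sites of replicate 2 alone. By gene, 10 of 19 at Fgf8, 18 of 46 at En1 and 7 of 13 at Wnt1 did. At En2 it was 11 of 18, at Gbx2 14 of 39 and at Otx2 6 of 23. The share was highest at En2 (61.1%), with a ratio of 1.20 between the libraries, followed by Wnt1 (53.8%) and Fgf8 (52.6%). It was lowest at Otx2 (26.1%), with a ratio of 1.10. The part of these hotspots in the difference between the libraries was not tested. Hotspot length over the same loci gives the difference without counting peaks. It came to 1.44 kb at Fgf8 in replicate 1 and 12.0 kb in replicate 2. At En1 it came to 3.52 kb and 27.7 kb, and at Wnt1 to 2.24 kb and 9.30 kb. Otx2 was covered for 24.5 kb in replicate 1 and 31.6 kb in replicate 2, the smallest ratio of the 7 at 1.29, while En2 had 13.7 kb and 26.9 kb and Gbx2 9.01 kb and 27.8 kb. All 7 genes were covered for longer in replicate 2, as were all hotspots together with 73.7 Mb in replicate 2 and 44.7 Mb in replicate 1.

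The shared distal sites lay close to their genes. Of the 98, 56 lay within 10 kb of a start, against 32.9% of all shared distal sites. By the annotation 67 were intergenic, 22 lay in an intron and 9 overlapped an exon in part or in whole. Of the 98, 21 lay inside the gene they were assigned to. Of the 98, 57 lay in a replicate 2 hotspot over 2 kb, against 10.3% of all shared distal sites, and 3 lay in a replicate 1 hotspot of that width, against 1.64%. Positions are given from the nearest start of the gene, with a minus sign for upstream.

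Around Otx2 the sites fell into 4 groups separated by more than 10 kb, a spacing chosen after the positions were seen. The group around the gene ran from -2.97 kb to 11.2 kb and held 54 sites, promoter sites included, 27 of them shared. Of these shared sites 11 were promoter sites. A group from 37.6 kb to 82.7 kb downstream held 11 sites, 2 of them shared. A compact group between -37.6 kb and -33.7 kb held 9 sites, 5 of them shared. Its highest site at -36.2 kb, the Otx2 distal sequence printed above, reached 97 in replicate 1 and 104 in replicate 2, close to the 101 and 107 of the Otx2 promoter. This site lay in wide hotspots of both libraries, 2232 bp in replicate 1 and 2143 bp in replicate 2. The group between -87.6 kb and -62.7 kb held 17 sites, and here replicate 1 had the more sites, 15 against 10. The upstream sites lie within the span of Otx2os1, a noncoding transcript on the other strand.

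Within that far upstream group the libraries parted by position. Between 62.7 kb and 67.4 kb upstream (chr14:48736436-48741245) all 7 sites had a replicate 1 peak, with heights of 32 to 81, and 1 had a replicate 2 peak, with a height of 43. That shared site, at -64.6 kb, was the highest of the 7 in replicate 1. It ranked at the 88.3rd percentile of replicate 1 peaks and the 38.7th of replicate 2 peaks. Its hotspot was 611 bp wide at the top value in replicate 1 and 205 bp wide at a −log10 of 2.70 in replicate 2. Over the same stretch replicate 1 had 8 hotspots and replicate 2 had 1. Sites farther out ranked more alike. The site at -80.4 kb stood at percentiles of 81.0 in replicate 1 and 78.8 in replicate 2, and the site at -87.6 kb at 65.9 and 70.9. The stretch was chosen after its values were seen. The next gene on the low-coordinate side, Tmem260, also had more distal sites in replicate 1, with 30 against 18, and so did Ap5m1 on the other side, with 11 against 8.

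En2 had 2 groups of sites. The group around the gene ran from -8.46 kb to 14.6 kb with 46 sites, promoter sites included, 23 of them shared. Of these shared sites 3 were promoter sites. The separate group ran from -46.4 kb to -39.2 kb with 12 sites, of which all 12 had a replicate 2 peak and 4 a replicate 1 peak. Its highest site at -42.4 kb, printed above, reached 95 in replicate 1 and 117 in replicate 2, and a replicate 2 hotspot of 5396 bp held it and the other 3 shared sites. Other high sites lay at -7.17 kb, with heights of 86 and 101, and at -3.51 kb, with 48 and 112. The second of these is an example of the En2 pattern, a modest replicate 1 peak at a high replicate 2 peak.

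Gbx2 had 15 shared sites, promoter included, between -12.8 kb and 18.6 kb. The site at -12.2 kb, printed above, reached 96 in replicate 1 and 113 in replicate 2, and the site at -9.39 kb had 78 and 111. The site at 8.11 kb had 98 and 95, slightly higher in replicate 1. A further 8 shared sites lay from 38.7 kb to 86.9 kb downstream inside Agap1, the gene of an Arf GTPase activating protein, 7 in its introns and 1 in an exon. Their heights were 27 to 60 in replicate 1 and 63 to 102 in replicate 2. They are nearer to the Gbx2 start than to a start of Agap1, and which gene they act on was not measured.

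At En1 11 of the 12 shared distal sites were above the median peak height of replicate 1, and the exception was the site at 65.6 kb with 25 in each library. The upstream site at -15.7 kb had heights of 79 in replicate 1 and 81 in replicate 2, and the one at -7.65 kb, printed above, had 75 and 90. Downstream, the site at 42.2 kb had 76 and 85 and lay in a small group apart from the gene. Sites at -5.86 kb and -3.99 kb lay on the upstream side that the 7469 bp hotspot of replicate 2 covers. Of the 52 sites in the group around the gene, promoter included, all 52 had a replicate 2 peak and 10 a replicate 1 peak.

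Wnt1 had its sites in a stretch of 12.4 kb. The site at 8.34 kb downstream, printed above, reached 109 in replicate 1 and 125 in replicate 2, and was higher than the Wnt1 promoter in both libraries. It lay in hotspots of 1173 bp and 1495 bp at the top value in both. The other 3 shared sites were lower, with heights of 49 to 58 in replicate 1 and 60 to 71 in replicate 2. From 1.19 kb to 6.63 kb, over the gene body and just past it, 11 sites were of replicate 2 alone, with heights of 32 to 94.

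Fgf8 likewise had higher distal sites than promoter peaks. The paired sites at 24.64 kb and 24.99 kb downstream had heights of 82 and 77 in replicate 1 and of 95 and 100 in replicate 2. These lie toward Fbxw4, a neighbouring gene whose introns are known to hold Fgf8 enhancers. Inside the gene, the site at 5.64 kb in an exon had 55 and 93, the intronic site at 4.92 kb had 61 and 90, and the intronic site at 1.68 kb had 41 and 65. Fgf17 had its 2 shared distal sites upstream, at -3.45 kb with heights of 80 and 107 and at -4.96 kb with 58 and 90. The site at -4.96 kb ends at position 70647305 and Npm2 begins at 70647302, so only its last bases overlap an Npm2 exon. Both Fgf17 distal sites were higher than the Fgf17 promoter peaks. Wnt1, Fgf8 and Fgf17, the 3 genes for secreted factors, thus had their highest peak outside the promoter in both libraries.

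**Figure D3:**
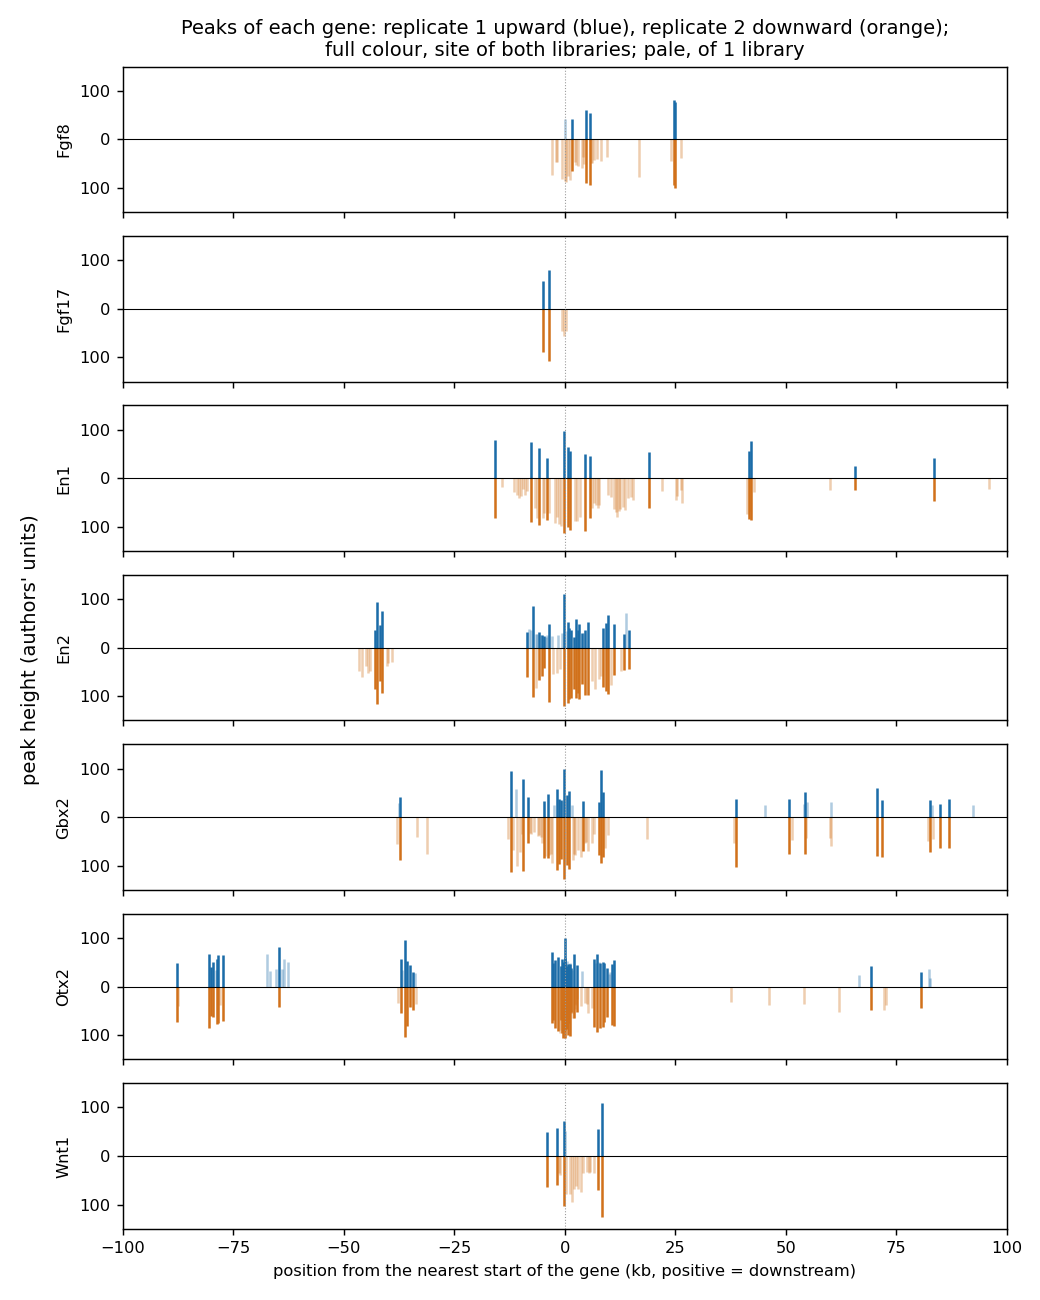
Peaks of each isthmic organizer gene by position from its nearest start (kb, positive is downstream), with replicate 1 heights drawn upward in blue and replicate 2 heights downward in orange, in full colour where a site is shared and pale where it is of 1 library. Replicate 2 adds many pale peaks around En1, Fgf8 and Wnt1, and Otx2 shows a stretch near -65 kb with replicate 1 peaks alone apart from 1 shared site.

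Heights of the 98 shared distal sites had a median of 49 in replicate 1 (range 22 to 109) and 81.5 in replicate 2 (range 25 to 125). All shared distal sites had medians of 43 and 67. Since replicate 2 heights run higher throughout, with 92 of the 98 sites higher there and 93.8% of all shared distal sites, heights were also ranked within each library. The median rank of the 98 sites stood at the 66.9th percentile of replicate 1 peaks and the 76.6th of replicate 2 peaks, against 60.3 and 66.4 for all shared distal sites. By gene the sites ranked higher in replicate 2 at En2, by a median of 17.3 percentile points, and at Gbx2, by 18.9 points. The differences were 4.81 points at Fgf8, 4.76 at Fgf17, 1.92 at Otx2, 0.659 at En1 and -3.33 at Wnt1, and the median over all shared distal sites was 2.84. The median shift toward replicate 2 was thus largest at Gbx2 and En2. At En1 the small median covers shifts both ways, with 6 of the 12 shared sites ranked higher in replicate 2. The En1 site at 4.70 kb went from the 67.9th percentile in replicate 1 to the 90.6th in replicate 2. The one at -15.7 kb went from the 87.4th to the 76.2nd. Heights of a site in the 2 libraries correlated with a Spearman rho of 0.479 and a Pearson r of 0.527 over the 98 sites, against 0.799 and 0.818 over all 55090 shared distal sites. The 98 sites come from 7 loci, and these values are given as a description.

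**Figure D4:**
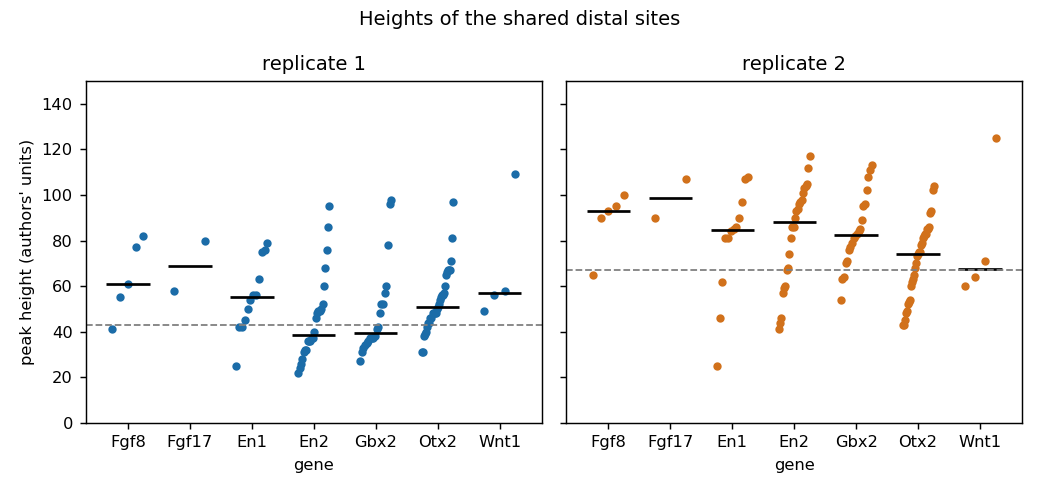
Heights (authors' units) of the shared distal sites of each isthmic organizer gene in replicate 1 (left) and replicate 2 (right), with a point per site, black bars for the median of each gene and a dashed line for the median of all shared distal sites (43 and 67). En2 and Gbx2 have medians of 38.5 and 39.5, below the line, in replicate 1 and of 88 and 82.5, above it, in replicate 2.

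The sequences of the sites were read over a window of 150 bp at each shared site. The 98 distal windows had a median GC content of 54.7% (quartiles 50.2 to 59.8%), against 52.0% (48.0 to 56.7%) for all shared distal sites. The 21 shared promoter windows had a median of 59.3%, against 64.0% for all shared promoter sites. Of these 21 windows 11 were at Otx2 and none at Fgf8 or Fgf17. The Otx2 windows had 40.0 to 64.7%, and those of En1, En2, Gbx2 and Wnt1 had 58.0 to 78.7%, so the median of the 21 mixes both. The median number of CpG dinucleotides was 4.5 per distal window, against 3 for all, and 9 per promoter window, against 11 for all. The promoter windows of Otx2 held 1 to 11 CpG, and those of the other genes 8 to 25. The printed En1 and En2 promoters are GC-rich, and the printed Otx2 promoter, at 45.5% GC with 2 CpG, is not.

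The 10 motifs were searched on both strands, and none contains another. TAATCC is bound by Otx proteins, and 5 of the 98 distal windows held it, or 5.10%, against 4.62% of all shared distal sites. TAATTA, bound by many homeodomain proteins such as En and Gbx, was in 3.06%, against 2.63%. GTCANGC, part of the Pax2, Pax5 and Pax8 motif, was in 6.12%, against 5.82%. CTTTGAT, bound by the Tcf and Lef factors that act in Wnt signalling, was in 4.08%, against 2.31%. CGGAAG, bound by Ets factors such as Etv4 and Etv5, was in 5.10%, against 4.21%. ACAAAG, bound by Sox factors, was in 19.4% (95% exact interval 12.1 to 28.6%), against 15.6%, and 8 of the 19 windows with it belonged to En2. TGACAG, bound by Meis factors, was in 7.14% (2.92 to 14.2%), against 12.8%. TGATTGAC, a Pbx motif, was in 0 of 98, which allows a share of up to 3.69% by the exact interval, against 0.532%. ATGCAAAT, bound by Pou factors, was in 2.04%, against 1.26%, and GGGCGG, bound by Sp factors, in 9.18%, against 9.98%. When the share of all sites was standardised for GC content, it moved most for GGGCGG, from 9.98% to 13.1%. With or without that step, the share of all sites lay within the exact interval of the 98 windows for each of the 10 motifs. No difference in these letters was therefore detectable with 98 windows. Of the printed sites, the Wnt1 distal site holds TAATCC and ACAAAG, the En2 distal site holds CTTTGAT and ACAAAG, and the Gbx2 distal site holds TAATCC and GGGCGG. The Otx2 and En1 distal sites hold none of the 10. A match is a run of letters and not a measured binding site.

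Neighbouring genes share these loci, and the nearest start decided which gene a site was assigned to. Within 100 kb of a start of Otx2 all 31 shared distal sites were nearest to Otx2. At En1 12 of 14 were nearest to En1, at Gbx2 20 of 25 and at En2 24 of 35, where 7 of the rest were nearest to Cnpy1, a gene that enables Fgf signalling at the isthmus in zebrafish. The ligand genes were more crowded. Of the 17 shared distal sites within 100 kb of Fgf8, 5 were nearest to Fgf8 and 6 to Fbxw4. Of the 21 around Wnt1, 4 were nearest to Wnt1 and 6 to Ddn, and of the 7 around Fgf17, 2 were nearest to Fgf17. Wnt10b, the Wnt gene next to Wnt1, had a promoter height of 53 in replicate 1 and 100 in replicate 2, with 2 and 10 distal sites. Like Wnt1, it had more distal sites in replicate 2. Fbxw4 had 18 distal sites in replicate 1 and 28 in replicate 2, a smaller ratio than that of Fgf8. Marco, next to En1, had 9 and 14 distal sites and no promoter peak in either library. Cnpy1 had 8 and 18, with promoter heights of 89 and 121.

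A list of 32 further genes of the organizer network was described the same way. All 32 had a shared promoter site and at least 1 shared distal site, against 66.0% and 64.1% of all genes. At least 10 shared distal sites were found at 18 of the 32, against 5.14% of all genes. Without peaks in hotspots over 2 kb, 11 of the 32 had a shared promoter site, against 47.2% of all genes. The starts of 26 of the 32 lie in such hotspots of replicate 2. The median number of shared distal sites was 11, against 12 for the 7 organizer genes. Summed over the 32 genes, 653 distal sites had a replicate 1 peak and 942 a replicate 2 peak, a ratio of 1.44, below the 1.87 of the 7. The list was chosen with earlier results of these data known.

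Among the paralogs, Otx1 had 20 shared distal sites, with 38 in replicate 1 and 35 in replicate 2, and so had no excess in replicate 2, as Otx2 had nearly none. Gbx1 had a single shared distal site and promoter heights of 47 and 104, below the 100 and 128 of Gbx2 in both libraries. The other growth factor genes of the region, Fgf15 and Fgf18, had promoter heights of 91 and 109 and of 82 and 112, above those of Fgf8 and Fgf17 in both libraries. Fgf18 had 9 shared distal sites and Fgf15 had 4. Wnt3a, a roof plate Wnt ligand, had promoter heights of 41 and 82, and 3 shared distal sites.

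Of the upstream regulators, Pax2 had 36 shared distal sites, Lmx1b 32, Pax5 19 and Pax8 12. Lmx1b, which maintains Wnt1 and Fgf8 at the isthmus, had 38 distal sites in replicate 1 and 88 in replicate 2. Sp8, a zinc finger factor of the Fgf8 network, had 8 and 39, a ratio of 4.88 that is close to those of Fgf8 and En1. Lmx1a and Foxa2, which mark the roof plate and the floor plate, had 10 and 32 sites and 28 and 73 sites. Pax5, by contrast, had a ratio of 1, and Irx2 of 0.895. A replicate 2 excess was therefore found at some network genes and not at others.

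The targets and dampers of Fgf signalling each had more shared distal sites than the median of 1 over all genes. Dusp6, a phosphatase that ends ERK signalling, had 21. Spry2 had 16, Spry1 had 13 and Spry4 had 11, and these Sprouty proteins also restrain the pathway. Il17rd, another inhibitor, had 5, and the Ets factors Etv4 and Etv5 had 8 and 7. The receptors Fgfr2, Fgfr1 and Fgfr3 had 12, 11 and 8. Axin2, a feedback inhibitor of Wnt signalling, had 22. Promoters of these 11 pathway genes stood higher than those of Fgf8, Fgf17 and Wnt1 in both libraries. Etv4 had heights of 118 and 140, Axin2 of 117 and 142 and Dusp6 of 115 and 131, against 42 and 88 at Fgf8 and 72 and 103 at Wnt1.

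For each gene, the protein-coding gene with the most similar values was found over 4 measures, the rank of the highest promoter peak and of the number of distal sites in each of the 2 libraries. The measure of likeness is the sum of the 4 absolute differences in percentile. It was 4.68 for Fgf8 and Moxd1, 4.51 for Wnt1 and Gata3, 6.51 for En1 and Foxc1 and 4.81 for En2 and Sall4. It was 1.77 for Gbx2 and Palld, 5.96 for Otx2 and Sim1 and 0.286 for Fgf17 and Vrtn. Moxd1 had 5 and 21 distal sites and Gata3 had 4 and 21, with the same few sites in replicate 1 and many in replicate 2 as Fgf8 and Wnt1. The likeness in these counts follows from how Moxd1 and Gata3 were picked. They show only that such counts also occur outside the organizer genes.

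Sites next to the limits on distance were as follows. The site just inside 1 kb lay 974 bp from an Otx2 start, with a replicate 1 peak of height 35 alone, and the one just outside lay 1007 bp from an Otx2 start, with a replicate 2 peak of height 54 alone. Among shared sites, the one just inside lay 862 bp from the En2 start, with heights of 41 in replicate 1 and 105 in replicate 2, and the one just outside lay 1028 bp from an Otx2 start, with 46 and 102. The site just inside 100 kb lay 95.9 kb from the En1 start, with a replicate 2 height of 22, and the one just outside lay 107 kb from Gbx2, with a replicate 1 height of 27. Among shared sites these were the Otx2 site at -87.6 kb, with 48 and 73, and a site 114 kb from Gbx2, with 30 and 62.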

How the data were processed

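DNase-seq was done on 2 libraries of 1 group. Per the text deposited with the files, each library has its own peaks and hotspots on build mm10. Not given in the sources used here were the aligner, the caller, their versions, the read depth and how heights were scaled. The deposited peak height is a score between 1 and 150 on windows of 150 bp, and the deposited hotspot value is the −log10 of a false discovery rate, with 100 written for the strongest. Peak and hotspot values are the authors' own and describe, rank or filter within a list.

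Starts came from protein-coding transcripts of the GENCODE M21 basic set, with readthrough transcripts left out (41264 starts, 21692 genes). Overlap of at least 1 bp joined peaks into sites, and the promoter window was 1 kb and the distal limit 100 kb. Only autosomal, X and Y peaks entered. The assignment of sites to genes was checked on simulated peaks. Sequences are RefSeq GRCm38.p6. Shares carry exact Clopper-Pearson 95% intervals, which cover counting error only. Python 3.11.15, pandas 2.3.3, scipy 1.17.1 and pysam 0.24.0 were used.

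The 7 genes, the network and marker lists and the measures were chosen with earlier results of these data known. Named were the 7 genes, network genes, the nearest protein-coding neighbours and, for each of the 7, the gene most like it. Alternatives were other windows, distances, overlaps, peak lists, annotation sets and rules of assignment, and each library alone.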

Additional observations from a re-analysis of the deposited data

How the results depend on the processing

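The number of organizer genes with a shared promoter site was 5 or 6, and that of network genes 29 to 32, under other windows, overlaps, peak lists and annotation sets. The 98 shared distal sites became 38 when sites went to the nearest gene of any type, where noncoding transcripts such as Otx2os1 take them, and 150 when every site within 100 kb of an organizer gene counted. The share of distal sites that was shared, 33.2%, became 23.9% with an overlap of at least 75 bp and 41.3% with only peaks above the median height of their library. Each library alone gave 138 (without replicate 2) to 258 (without replicate 1) distal sites in place of the 98 shared ones, 6 to 7 organizer genes and 32 to 32 network genes with a promoter peak. An alternative chosen after seeing the data left out peaks in hotspots over 2 kb. It gave 1 organizer gene and 11 network genes with a shared promoter site, 41 shared distal sites and 18.1% shared. The share over all distal sites is given for the main setting alone. The 23.9%, 41.3% and 18.1% therefore cannot be set against it. Of the recomputed values, 27 for gene groups and 82 for single genes stayed within 1.5 times the reported count, within its interval or, for a height, equal, and 9 and 21 did not. No paired analysis was possible because there is 1 group. Read depth is not known, so how far it sets the number of peaks per library was not tested.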
